A study of Arabidopsis thaliana with 12 samples.

Results

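Transcripts of 8 Arabidopsis cell division genes were followed in wild-type plants and in 3 mutants of the J-domain co-chaperones DJC31 and DJC62, each single mutant and the double mutant. The 8 genes are the mitotic cyclins CYCB1;1 (AT4G37490), CYCB1;2 (AT5G06150) and CYCA1;1 (AT1G44110), the D-type cyclin CYCD3;1 (AT4G34160), the B-type cyclin-dependent kinases CDKB1;1 (AT3G54180), CDKB2;1 (AT1G76540) and CDKB2;2 (AT1G20930), and the cytokinesis syntaxin KNOLLE (AT1G08560, also named SYP111). They were chosen by locus identifier, and all 8 of the 8 were found among the 36917 loci measured. All 8 also passed the filter on low values, which kept the 19975 loci that reached 10 in 3 libraries or more.

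A plant cell divides when cyclin-dependent kinases (CDKs) are bound and activated by cyclins that are made and destroyed at set points of the cycle. D-type cyclins act with CDKA;1 at the entry into S phase, while B-type cyclins, A1-type cyclins and the plant-specific CDKB kinases accumulate in G2 and M phase, and KNOLLE then serves the fusion of vesicles into the cell plate that separates the daughter cells. Many G2 and M phase genes are driven by MYB3R transcription factors, and in young shoots their transcripts come mainly from the meristem and from leaf primordia. CYCB1;1 has a further role: it is induced after DNA damage through the transcription factor SOG1 and acts there with B1-type CDKs in repair.

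RNA-seq had been made from whole plants at the 4-leaf stage, with 3 libraries for each of 4 genotypes and 12 in all. The genotypes were wild type (Col-0), the insertion line djc31 (SALK_034886), the insertion line djc62 (SALK_050913) and the double mutant djc31 djc62. All plants grew on soil in 16 h days of 100 µmol photons m-2 s-1 at 21 °C and 8 h nights at 16 °C, with no stress treatment named. Each mutant genotype is 1 line, no complemented line is among the samples, and the labels do not say whether replicates were separate sowings, so the spread behind the p-values is that of these samples and may be technical.

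Libraries held 13.6 M (djc31 replicate 2) to 31.08 M reads (wild type replicate 2; median 25.79 M), and no replicate pair agreed within sampling noise. Each target transcript was low in its mutants: wild type had 727 ± 49.3 of DJC31 against 115 ± 30.8 in djc31 and 47.5 ± 7.79 with both mutations, and 516 ± 76.1 of DJC62 against 161 ± 50 in djc62 and 75.7 ± 17.6 with both (mean ± SD, n = 3). Where the insertions lie relative to the reads was not analysed here, so these levels check the labels only in part. The 3 wild-type libraries stood apart from all 9 mutant libraries on the leading principal component of the whole data (35.7% of variance), and the double mutant stood apart on the next one (21.9%). Values here are normalised read counts, listed for replicates 1, 2 and 3, and were not divided by transcript length, so levels are compared between genotypes and not between genes. Log2 changes are on the log2(value + 1) scale, each adjusted p is limma's, with Benjamini-Hochberg adjustment over all 19975 tested loci, and a gene is said to rise or fall where the adjusted p is under 0.05. Where libraries of genotypes are said not to overlap, this is a description only. How many of all tested loci separate likewise was not counted.

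In the double mutant, 7 of the 8 genes rose against wild type and none fell. The 7 are every gene of the group that peaks in G2 and M phase, and their changes ran from 1.61-fold for CYCB1;2 to 2.42-fold for CYCB1;1. The exception was CYCD3;1, the cyclin of S phase entry. Over all tested loci, 13.8% rose and 15.5% fell in this comparison. The median log2 change was 0.87 for the 8 genes and 0.02 for all tested loci.

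**Figure D1:**
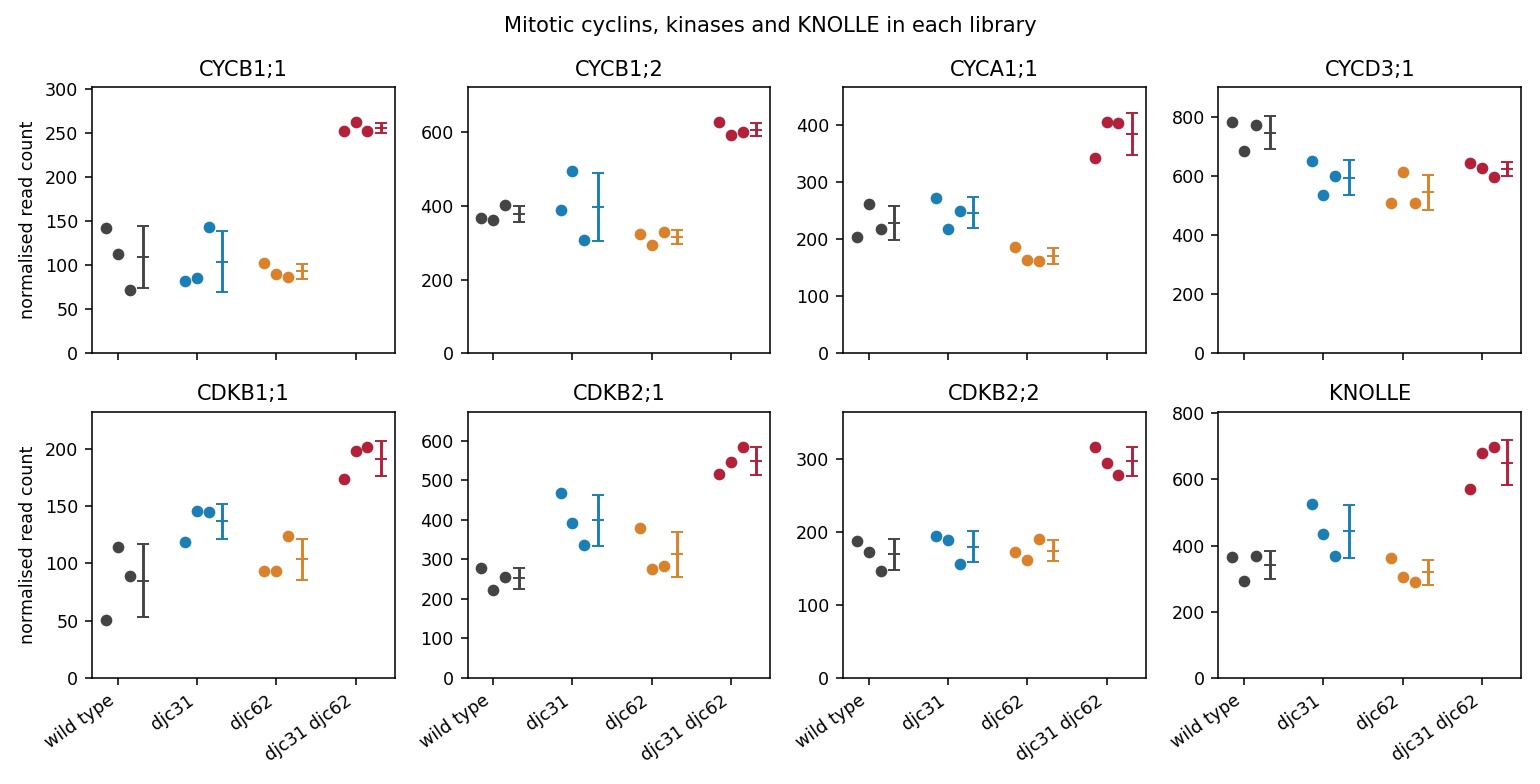
Normalised read count (y axis, from 0) of each of the 8 genes in the 12 libraries, by genotype (x axis). Each point is 1 library, and the bar beside each group gives mean ± SD (n = 3). For 7 genes the 3 double-mutant points lie above all 9 other points, while for CYCD3;1 the wild-type points are the highest. How many of all tested loci separate in this way was not counted.

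CYCB1;1, a B-type cyclin with a destruction box that is widely used to mark cells in G2 and M phase, had values of 142, 113 and 71.9 in wild type, 82.3, 85.9 and 144 in djc31, 103, 89.9 and 87 in djc62, and 253, 263 and 253 in the double mutant. The double-mutant libraries were close together and above the other 9, whose highest value was 144, whereas the wild-type and single-mutant libraries overlapped. The rise against wild type was 1.28 ± 0.25 SE on the log2 scale (adjusted p = 0.00115). Against wild type the change was -0.06 ± 0.25 SE in djc31 (adjusted p = 0.883) and -0.18 ± 0.25 SE in djc62 (adjusted p = 0.653), with 95% intervals of -0.60 to 0.47 and -0.71 to 0.36. Spread was uneven: the coefficient of variation was 32.4% in wild type and 33.1% in djc31, but 8.85% in djc62 and 2.17% in the double mutant.

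CYCB1;2, another B1-type cyclin, had 368, 360 and 401 in wild type, 388, 494 and 308 in djc31, 324, 293 and 328 in djc62, and 627, 593 and 599 in the double mutant. Again every double-mutant library was above the other 9. The 3 djc62 libraries lay below the 3 wild-type ones without passing the test. The log2 change was 0.69 ± 0.15 SE in the double mutant (adjusted p = 0.00263) and -0.26 ± 0.15 SE in djc62 (adjusted p = 0.235).

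CYCA1;1, an A-type cyclin of late S phase to mitosis, had 205, 262 and 219 in wild type, 273, 219 and 249 in djc31, 186, 164 and 162 in djc62, and 342, 406 and 405 in the double mutant. Here the order of the means was double mutant, djc31, wild type and djc62, in which djc31 and wild type overlapped. The double mutant rose by 0.75 ± 0.16 SE against wild type (adjusted p = 0.00174). In djc62 all libraries were below all wild-type libraries, with a log2 change of -0.41 ± 0.16 SE (adjusted p = 0.0599). Only for this one of the 8 genes did djc62 differ from djc31 past the threshold, at -0.53 ± 0.16 SE (adjusted p = 0.0337), in a comparison in which 7.91% of all tested loci were higher and 5.85% lower in djc62. That call was lost without djc31 replicate 1 or 3 or without djc62 replicate 2 or 3 (adjusted p = 0.0564 to 0.128), with the replicate block (0.0534) and with only the groups compared in the fit (0.111).

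CYCD3;1, whose product acts at S phase entry and which responds to cytokinin, had 784, 684 and 775 in wild type, 652, 535 and 600 in djc31, 511, 615 and 510 in djc62, and 646, 627 and 599 in the double mutant. All 9 mutant libraries were below all 3 wild-type libraries, while the mutants overlapped each other. The share of all tested loci with this order was not counted. The gene fell in djc62 (log2 change -0.46 ± 0.12 SE, adjusted p = 0.00975), a call lost without djc62 replicate 3 (adjusted p = 0.051). In djc31 the change was -0.33 ± 0.12 SE (adjusted p = 0.0533) and in the double mutant -0.26 ± 0.12 SE (adjusted p = 0.125). The djc31 change passed the threshold with DESeq2 (adjusted p = 0.0414), with the filter raised to 50 (0.0488), and without wild type replicate 2 (0.0486) or djc31 replicate 1 (0.0299). In RefSeq's annotation (TAIR10.1) the locus overlaps AT4G34150, which fell in all 3 mutants (in the order djc31, djc62 and double mutant, log2 changes of -2.37, -1.67 and -1.63 with adjusted p = 7.92e-09, 6.94e-07 and 1.12e-06). No source used here gives the strand setting of the counting, and the part of shared reads in the CYCD3;1 values was not tested.

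CDKB1;1, a plant-specific CDK of the G2 to M transition that also serves divisions of the stomatal lineage, had 50.8, 114 and 89.3 in wild type, 119, 146 and 145 in djc31, 93.2, 93.3 and 124 in djc62, and 174, 198 and 202 in the double mutant. The means rose in the order wild type, djc62, djc31 and double mutant, and djc62 overlapped both of its neighbours in that order. The gene rose by 1.24 ± 0.25 SE in the double mutant (adjusted p = 0.00142) and by 0.75 ± 0.25 SE in djc31 (adjusted p = 0.0341). The call in djc31 was lost without wild type replicate 1, the lowest library (log2 change 0.43, adjusted p = 0.197), and without djc31 replicate 2 or 3 (adjusted p = 0.0876 and 0.0774). In djc62 the log2 change was 0.35 ± 0.25 SE (adjusted p = 0.34).

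CDKB2;1, a CDK of G2 and M phase needed for the shoot meristem, had 277, 223 and 256 in wild type, 467, 391 and 337 in djc31, 379, 276 and 283 in djc62, and 515, 547 and 585 in the double mutant. All djc31 and all double-mutant libraries were above all wild-type libraries. It rose by 0.65 ± 0.16 SE in djc31 (adjusted p = 0.00549) and by 1.12 ± 0.16 SE in the double mutant (adjusted p = 6.31e-05), the lowest adjusted p of the 8 genes in any comparison with wild type. In djc62 the log2 change was 0.30 ± 0.16 SE (adjusted p = 0.186). The locus overlaps AT1G76530, which moved the opposite way and fell in djc31 and the double mutant (log2 change -2.54 and -2.09, adjusted p = 0.000589 and 0.00314).

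CDKB2;2, the close relative of CDKB2;1, had 188, 173 and 147 in wild type, 195, 189 and 156 in djc31, 172, 161 and 190 in djc62, and 317, 295 and 278 in the double mutant. Wild type and both single mutants overlapped throughout. Only the double mutant stood above them, by 0.81 ± 0.16 SE on the log2 scale (adjusted p = 0.00137). Against wild type the log2 change was 0.09 ± 0.16 SE in djc31 (adjusted p = 0.735) and 0.05 ± 0.16 SE in djc62 (adjusted p = 0.864). Its overlapping neighbour AT1G20925 did not pass the filter on low values. Because the CDKB2 genes are similar in sequence and no source used here gives the handling of reads with several matches, reads may be split between the pair.

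KNOLLE, made in dividing cells and placed at the forming cell plate, had 365, 294 and 368 in wild type, 527, 434 and 367 in djc31, 362, 305 and 289 in djc62, and 572, 679 and 699 in the double mutant. The double-mutant libraries were above the other 9, and djc31 overlapped wild type in its lowest library. The rise in the double mutant was 0.93 ± 0.16 SE (adjusted p = 0.000304). In djc31 the log2 change was 0.36 ± 0.16 SE (adjusted p = 0.0979) and in djc62 -0.10 ± 0.16 SE (adjusted p = 0.68). The neighbour that overlaps it, AT1G08550, fell slightly in djc62 and the double mutant (log2 change -0.30 and -0.32, adjusted p = 0.0386 and 0.0244). CDKB1;1 overlaps AT3G54190, for which the log2 change in the double mutant was -0.11 (adjusted p = 0.503), and CYCB1;1, CYCB1;2 and CYCA1;1 overlap no other annotated gene.

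**Figure D2:**
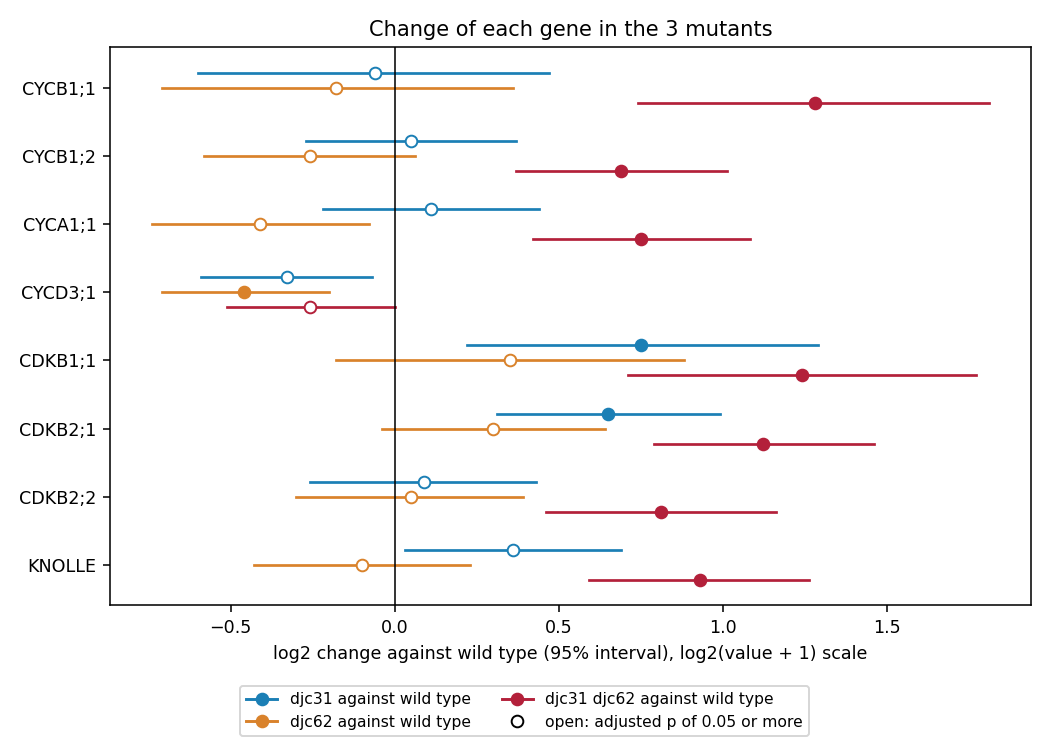
Log2 change against wild type (x axis, on the log2(value + 1) scale) of each gene (y axis) in djc31 (blue), djc62 (orange) and the double mutant (red), with 95% intervals from limma. Filled points have an adjusted p under 0.05: 7 genes in the double mutant, 2 in djc31 and 1 in djc62.

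The single mutants gave fewer calls among the 8 genes than the double mutant. In djc31, 2 of the 8 genes rose (CDKB1;1 and CDKB2;1) and none fell, in a comparison in which 13.3% of all tested loci rose and 14.2% fell. In djc62, none rose and 1 fell (CYCD3;1), where 13.7% of tested loci rose and 13% fell. Among only 8 genes, such counts are near these shares. The median log2 change of the 8 genes was 0.10 in djc31 and -0.14 in djc62, beside -0.01 and -0.00 over all tested loci. Expressed against the wild-type mean, levels in djc31 ranged from 79.7% for CYCD3;1 to 161% for CDKB1;1, and in djc62 from 72.9% for CYCD3;1 to 124% for CDKB2;1. In the double mutant the range was 83.5% for CYCD3;1 to 235% for CYCB1;1. The 3 comparisons share the wild-type libraries.

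Against the single mutants, where the differences do not use the wild-type means, the mitotic genes were also higher in the double mutant. The fit still took its spread from all 12 libraries, and the same 3 double-mutant libraries serve in each of these comparisons. Compared with djc31, 6 of the 8 rose and none fell, where 15.3% of tested loci rose and 16% fell. CYCB1;1 was 1.34 ± 0.25 SE higher (adjusted p = 0.000916), and the genes not past the threshold were CYCD3;1 (0.07 ± 0.12 SE, adjusted p = 0.687) and CDKB1;1 (0.49 ± 0.25 SE, adjusted p = 0.151), the latter without overlap between libraries. Compared with djc62, 7 of the 8 rose and none fell, where 9.38% of tested loci rose and 10.4% fell. CYCA1;1 had the lowest adjusted p (log2 change 1.16 ± 0.16 SE, adjusted p = 7.03e-05), and CYCD3;1 was at 0.20 ± 0.12 SE (adjusted p = 0.274). Several of these calls lay near the threshold. CDKB2;1 against djc31 (0.47 ± 0.16 SE, adjusted p = 0.0331) was lost without djc31 replicate 2 or 3 or any 1 double-mutant library (adjusted p = 0.0601 to 0.119). KNOLLE against djc31 (0.56 ± 0.16 SE, adjusted p = 0.0119) was lost without djc31 replicate 3 or double-mutant replicate 2 or 3 (adjusted p = 0.0507 to 0.0529). CDKB1;1 against djc62 (0.89 ± 0.25 SE, adjusted p = 0.0193) was lost without djc62 replicate 1 or 2 or double-mutant replicate 2 or 3 (adjusted p = 0.0654 to 0.069).

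For most of the genes the double-mutant change was larger than the sum of the single-mutant changes on the log2 scale, which is the non-additive contrast. It was above 0 past the threshold for 6 of the 8 genes and below 0 for none, where 15.8% of all tested loci were above and 15.4% below. The single changes of CYCB1;1 summed to -0.24 and the double change was 1.28, a difference of 1.52 ± 0.36 SE (adjusted p = 0.00388). For CYCA1;1 the sum was -0.30 and the double change 0.75, a difference of 1.05 ± 0.22 SE (adjusted p = 0.00166). CYCB1;2 had a sum of -0.21 and a double change of 0.69, so that the difference was 0.89 ± 0.21 SE (adjusted p = 0.00436).

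Of the kinases only CDKB2;2 passed the threshold in this contrast. Differences between the kinases were not tested, and their 95% intervals overlap. CDKB1;1 and CDKB2;1 had single changes that summed to 1.10 and 0.95, close to their double changes of 1.24 and 1.12, with differences of 0.14 ± 0.36 SE (95% interval -0.61 to 0.89, adjusted p = 0.801) and 0.17 ± 0.23 SE (-0.30 to 0.65, adjusted p = 0.598). CDKB2;2 had a sum of 0.13 and a difference of 0.67 ± 0.23 SE (0.19 to 1.16, adjusted p = 0.0352), KNOLLE a sum of 0.26 and a difference of 0.66 ± 0.22 SE (adjusted p = 0.0304). For CYCD3;1 the difference of 0.53 ± 0.17 SE (adjusted p = 0.0268) has another form: both singles were lower than wild type, summing to -0.79, and the double mutant was no lower than they were. These last 3 calls depended on single libraries. CYCD3;1 lost its call in 6 of the 12 fits that left out 1 library (wild type replicate 1, djc31 replicate 2, djc62 replicate 1 or 3, double-mutant replicate 1 or 2; adjusted p = 0.0563 to 0.0678). CDKB2;2 lost it in 7 (wild type replicate 1 or 2, djc31 replicate 3, djc62 replicate 1 or 2, double-mutant replicate 1 or 2; 0.0588 to 0.0904), and KNOLLE in 7 (wild type replicate 1 or 3, djc31 replicate 3, djc62 replicate 2 or 3, double-mutant replicate 2 or 3; 0.0557 to 0.0751).

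**Figure D3:**
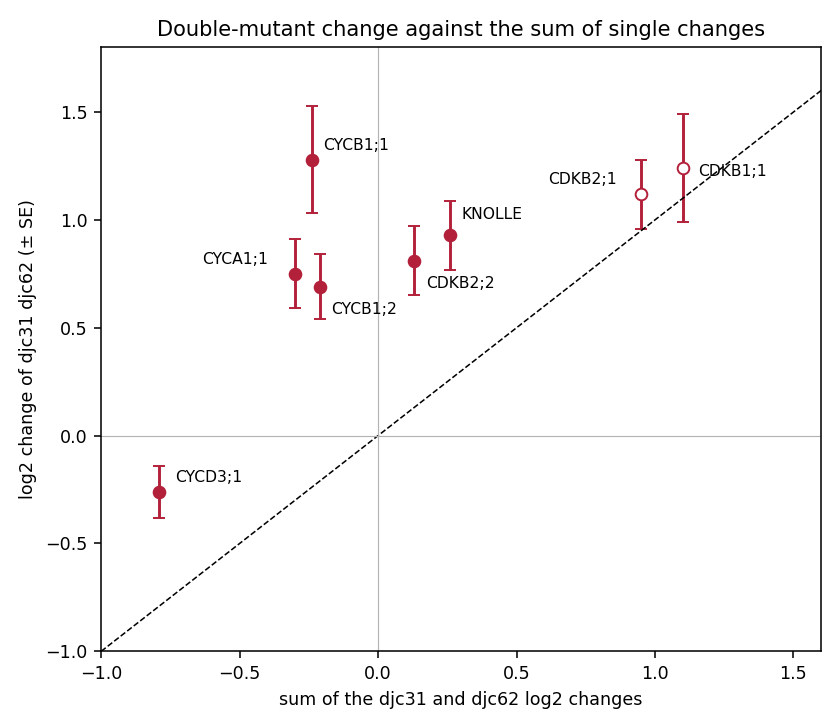
Log2 change of the double mutant against wild type (y axis, ± SE) plotted against the sum of the djc31 and djc62 log2 changes (x axis) for the 8 genes; the dashed line marks equality. Filled points differ from the line with an adjusted p under 0.05. CDKB1;1 and CDKB2;1 lie near the line and the other 6 above it.

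The 7 mitotic genes moved together between genotypes, while within genotypes their pairs had no common direction. Over the 12 libraries the 21 pairs among them had a median Pearson r of 0.75 (0.56 to 0.94) on the log2 scale, and the 7 pairs with CYCD3;1 a median of 0.04 (-0.43 to 0.21). The libraries fall into genotypes, and with each genotype's mean removed the medians were 0.05 and -0.13. The 21 pairs then ran from -0.64 (CYCB1;1 with CYCB1;2) to 0.92, on 8 residual degrees of freedom, so each value is imprecise. One pair stayed close with the means removed: CDKB2;1 and KNOLLE, at 0.94 over the 12 libraries and 0.92 within genotypes. Averaged over the 8 genes, each scaled to SD units over the 12 libraries, the level was 1.15 to 1.27 in the double mutant, -0.26 to 0.13 in djc31, -0.34 to -0.43 in wild type and -0.63 to -0.82 in djc62. By this average the djc62 libraries were the lowest 3 of the 12.

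Reads per library behind these values ran from 40 (CYCB1;1 in djc31 replicate 2, the shallowest library) to 913 (KNOLLE in the double mutant). RNA came from whole plants, so that more dividing cells and more transcript per dividing cell cannot be told apart in any of these values.

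Other B-type cyclins rose with the mitotic genes in the double mutant, while A-type and most D-type cyclins did not pass the test. Of the 7 other B-type cyclins tested, 5 rose and none fell against wild type, with a median log2 change of 0.86. The shares of all tested loci in this comparison were 13.8% and 15.5%. CYCB1;4 was at 150 ± 10.2 in wild type, 193 ± 16.8 in djc31, 125 ± 8.32 in djc62 against 340 ± 30.4 in the double mutant (log2 change in the double mutant 1.17, adjusted p = 3.78e-05). CYCB2;4 went from 180 ± 20.5 to 328 ± 8.53 (0.86, adjusted p = 0.000439), CYCB2;3 from 110 ± 18.4 to 260 ± 19.3 (1.25, adjusted p = 0.00285) and CYCB1;3 from 100 ± 12.9 to 197 ± 27.1 (0.97, adjusted p = 0.0211). None of the 7 passed the test in either single mutant.

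Of 8 other A-type cyclins tested none rose or fell in the double mutant (median log2 change 0.36, range -0.50 to 0.86). Of 8 other D-type cyclins 1 rose and none fell (median 0.17), and of 9 other CDKs, CKS subunits and CYCH;1, 2 rose and none fell (median 0.15). CDKA;1, the main CDK partner of A- and D-type cyclins, which is present throughout the cycle, had 893 ± 36.4 in wild type, 913 ± 187 in djc31, 958 ± 78.8 in djc62 against 991 ± 70.5 in the double mutant. Its log2 change in the double mutant was 0.15 (95% interval -0.13 to 0.43, adjusted p = 0.437). Over these 32 other cyclins and CDK subunits, 8 rose and none fell, and the number that rose was 5 without double-mutant replicate 3 and 11 at the most without any 1 library. The shares of all tested loci were 13.8% higher and 15.5% lower.

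Of 16 CDK inhibitors and related genes tested, 1 rose and 3 fell in the double mutant (median log2 change 0.06), near the shares of all tested loci (13.8% and 15.5%). KRP1 and KRP6, inhibitors that bind cyclin and CDK complexes, fell in all 3 mutants: KRP1 was at 929 ± 150 in wild type, 553 ± 128 in djc31, 335 ± 14.3 in djc62 against 554 ± 85.8 in the double mutant (adjusted p = 0.00284, 6.92e-06 and 0.00364). KRP6 was at 473 ± 64.1, 286 ± 16.1, 243 ± 33.3 and 304 ± 13 in the same order (adjusted p = 0.00151, 0.000116 and 0.00443). WEE1, the kinase that restrains CDKs under replication stress, was at 110 ± 14.9 in wild type and 118 ± 4.86 in the double mutant (log2 change 0.11, adjusted p = 0.766). The gene that rose, SMR7, is described with the damage genes.

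Genes of the cell plate and the spindle were among those that rose in the double mutant. Of 21 cytokinesis genes other than KNOLLE, 11 rose and none fell (median log2 change 0.41), while 5 rose and 1 fell in djc31 and 4 rose and 1 fell in djc62. Among all tested loci, 13.8% rose and 15.5% fell in the double mutant, 13.3% and 14.2% in djc31, and 13.7% and 13% in djc62. TES, a kinesin of the phragmoplast, went from 64.2 ± 8.91 to 221 ± 30.1 (1.77, adjusted p = 5.89e-06), and it rose in both single mutants as well, to 174 ± 33.7 in djc31 and 137 ± 14.7 in djc62 (adjusted p = 4.31e-05 and 0.000651). HINKEL, the kinesin that acts beside TES, went from 342 ± 40 to 565 ± 87 (0.72, adjusted p = 0.00216), and PAKRP2, another phragmoplast kinesin, from 167 ± 37.4 to 297 ± 32.5 (0.84, adjusted p = 0.0114). This count moved with single libraries: the number that rose was 7 without wild type replicate 1, 5 without wild type replicate 3, 4 without double-mutant replicate 1 and 6 without double-mutant replicate 2.

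Of 19 spindle, kinetochore and anaphase genes, 8 rose and none fell in the double mutant (median 0.49), and the number that rose was 7 to 9 without any 1 library. CDC20.1, an activator of the anaphase-promoting complex, went from 835 ± 44 to 1240 ± 68.2 (0.58, adjusted p = 0.000886), and had fallen in djc62 to 646 ± 62.5 (-0.37, adjusted p = 0.0184). AUR1, a mitotic Aurora kinase, went from 217 ± 14.6 to 387 ± 20.7 (0.83, adjusted p = 0.00271), and PANS1, an inhibitor of the anaphase-promoting complex, from 168 ± 11.1 to 318 ± 20.2 (0.92, adjusted p = 0.00437). In djc31 none of the 19 passed the test, and in djc62 none rose and 4 fell. Among all tested loci, 13.8% rose and 15.5% fell in the double mutant, 13.3% and 14.2% in djc31, and 13.7% and 13% in djc62.

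Of 15 transcription regulators of the cell cycle, 3 rose and none fell in the double mutant (median 0.18), a share of rises near the 13.8% of all tested loci. MYB3R4, an activator of G2 and M phase genes, went from 180 ± 56.5 to 298 ± 14.8 (0.78, adjusted p = 0.0245), and SCL28, a GRAS factor of the same network, from 445 ± 88.2 to 671 ± 61 (0.61, adjusted p = 0.036). DEL2, an atypical E2F, went from 20.4 ± 8.79 to 65.3 ± 3.1 (1.70, adjusted p = 0.00092). The number that rose was 1 without wild type replicate 3 or without any 1 double-mutant library.

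S phase genes went in both directions in the single mutants. Of 18 replication and histone H3.1 genes, 3 rose and none fell in the double mutant (median 0.17), whereas 2 rose and 6 fell in djc31 and 1 rose and 3 fell in djc62. Among all tested loci, 13.8% rose and 15.5% fell in the double mutant, 13.3% and 14.2% in djc31, and 13.7% and 13% in djc62. The rises in the double mutant and the falls in djc62 were near these shares. CDT1B, a replication licensing factor, went from 113 ± 27.7 to 211 ± 19.2 (0.92, adjusted p = 0.00329). HTR3, a histone H3.1 gene, rose in all 3 mutants, from 97.2 ± 13.3 to 428 ± 158 in djc31, 236 ± 75 in djc62 against 259 ± 17.3 in the double mutant (adjusted p = 4.98e-06, 0.00103 and 0.000329), and another, HTR9, from 1330 ± 137 to 1830 ± 138 in the double mutant (0.46, adjusted p = 0.0329). H3.1 genes are near-identical copies, and the division of reads among them is uncertain.

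**Figure D4:**
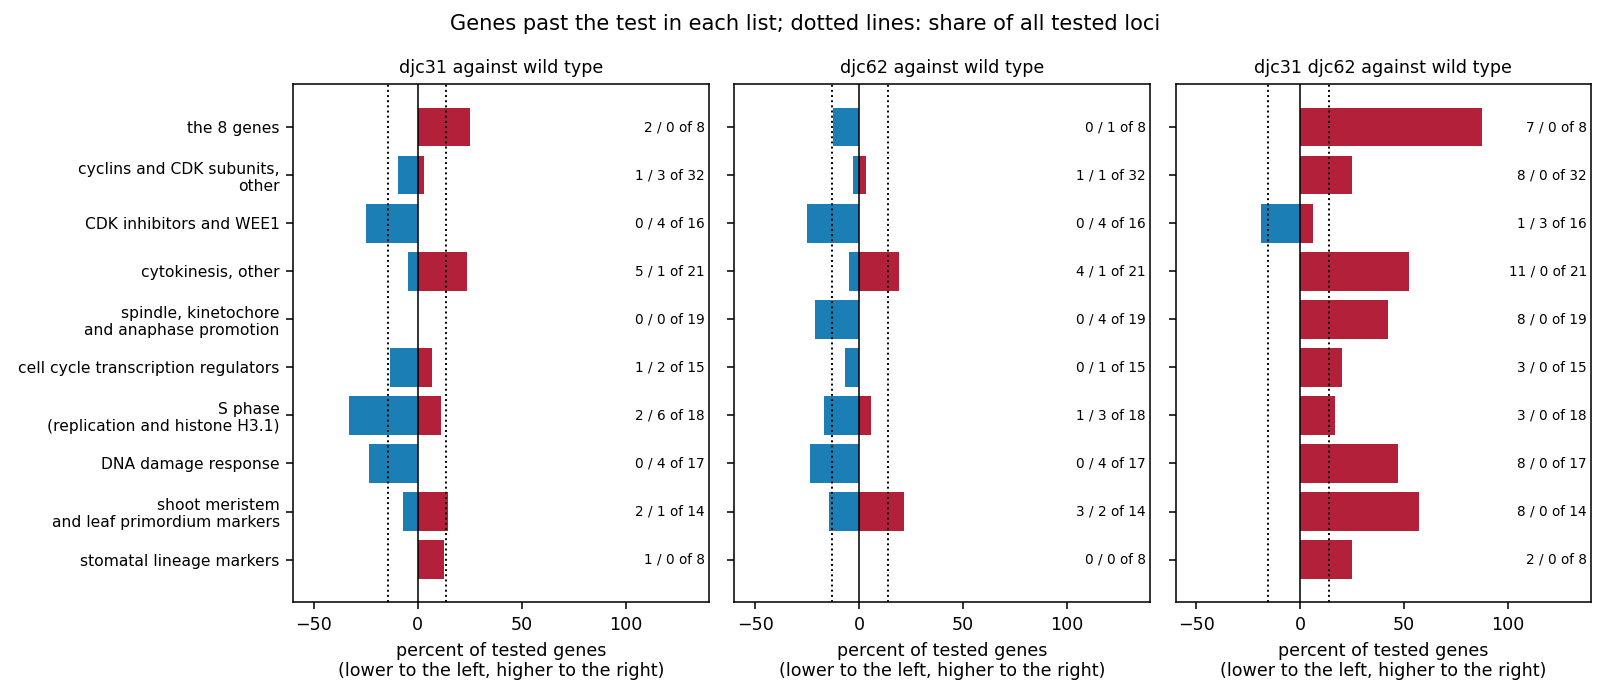
Share of tested genes that rose (red, right) or fell (blue, left) in each gene list, in percent (x axis), for the 3 mutants against wild type; the figures at the right give higher / lower of tested. Dotted lines mark the shares over all tested loci. Root, green leaf and reference lists are not drawn. In the double mutant 7 of the 8 genes rose, as did 8 of 14 meristem and primordium markers, 11 of 21 cytokinesis, 8 of 17 DNA damage and 8 of 19 spindle genes. NAC085 of the DNA damage list passed the filter on low values only through the double mutant.

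Because CYCB1;1 also responds to DNA damage, it was set beside the damage response genes. Of 17 of these tested, none rose and 4 fell in each single mutant, while 8 rose and none fell in the double mutant (median log2 change 0.68, with 6 to 9 genes higher without any 1 library). NAC085, among the 17, had no reads in either single mutant, at most 6.1 in wild type and 34.2 to 45.1 in the double mutant. It therefore passed the filter on low values only through the double mutant, which limits its place in these counts. Among all tested loci, 13.3% rose and 14.2% fell in djc31, 13.7% and 13% in djc62, and 13.8% and 15.5% in the double mutant. GMI1, a damage-induced gene of homologous recombination, had 151, 129 and 112 in wild type, 65, 85.9 and 49 in djc31, 30.3, 53.4 and 70.1 in djc62, and 550, 586 and 519 in the double mutant. It fell in both single mutants (log2 change -0.99 and -1.40, adjusted p = 0.0115 and 0.000915) and rose in the double mutant (2.08, adjusted p = 2.68e-05). NAC103, a target of SOG1, had 56.9, 32.1 and 27.8 in wild type, 21.2, 25.8 and 40.6 in djc31, 32.6, 37.3 and 32.3 in djc62, and 149, 149 and 151 in the double mutant (1.98, adjusted p = 0.000187).

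NAC044, a transcription factor related to SOG1 that holds cells in G2 after damage, had 6.1, 22.5 and 6.96 in wild type, 7.96, 0 and 3.38 in djc31, 16.3, 8.48 and 24.6 in djc62, and 216, 176 and 200 in the double mutant (4.17, adjusted p = 0.000218). SMR7, a CDK inhibitor induced by SOG1, had 6.1, 12.9 and 10.4 in wild type, 13.3, 25.8 and 19.4 in djc31, 25.6, 3.39 and 13.9 in djc62, and 52.1, 60.3 and 57.7 in the double mutant (2.47, adjusted p = 0.00318). Each was above all 9 other libraries in each double-mutant library, an order whose share over all tested loci was not counted. Several genes of the list were outside this pattern. SOG1 itself was not past the threshold in the double mutant (log2 change -0.11, adjusted p = 0.627) and fell in djc31 (-0.44, adjusted p = 0.0432). WEE1 was not past it in the double mutant (0.11, adjusted p = 0.766), and SMR5, another SOG1-induced inhibitor, had no reads in any library. NAC085, SOG1 and SMR5 were singled out after their values were seen.

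CYCB1;1 was also measured against the other 7 genes, as its log2 value minus their mean. That difference was -0.80, -1.20 and -1.85 in wild type, -1.98, -1.84 and -0.95 in djc31, -1.30, -1.37 and -1.48 in djc62, and -0.72, -0.75 and -0.81 in the double mutant. The double-mutant values lay at the top of the range, but wild type replicate 1 lay among them.

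**Figure D5:**
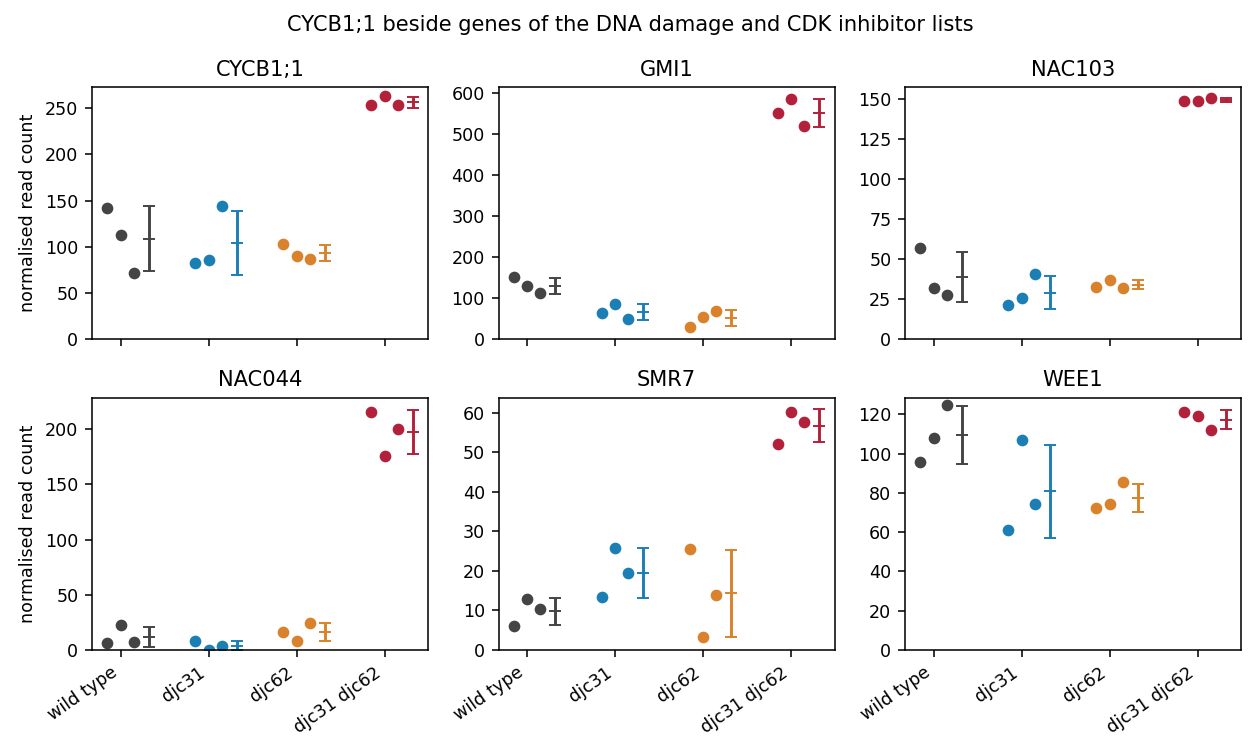
Normalised read count (y axis, from 0) of CYCB1;1, of GMI1, NAC103 and NAC044 from the DNA damage list, and of SMR7 and WEE1 from the inhibitor list, in each library by genotype (x axis); bars give mean ± SD (n = 3). In all panels but that of WEE1 the 3 double-mutant libraries lie above the other 9; GMI1 was lowest in the single mutants.

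Markers of tissue makeup moved as well. Of 14 shoot meristem and leaf primordium markers tested, 8 rose and none fell in the double mutant (median log2 change 0.72), with 7 or 8 higher without any 1 library. In djc31 2 rose and 1 fell, and in djc62 3 rose and 2 fell. Among all tested loci, 13.8% rose and 15.5% fell in the double mutant, 13.3% and 14.2% in djc31, and 13.7% and 13% in djc62. The means of ANT (623 to 526), CLV1 (1070 to 1020) and AN3 (437 to 414) were lower in the double mutant than in wild type, not past the threshold. WUS and CLV3 had no reads in either genotype. STM, the homeobox gene of the shoot meristem, had 98.6, 108 and 117 in wild type, 109, 103 and 82.8 in djc31, 134, 80.5 and 106 in djc62, and 365, 290 and 312 in the double mutant (1.57, adjusted p = 3.16e-05). GRF3 and GRF1, growth-regulating factors of leaf primordia, rose in all 3 mutants: GRF3 from 197 ± 43.5 to 624 ± 128 in djc31, 535 ± 76.8 in djc62 against 734 ± 21.3 in the double mutant (adjusted p = 1.97e-06, 1.07e-05 and 5.66e-07), and GRF1 from 253 ± 40.8 to 459 ± 24.5, 360 ± 38.1 and 460 ± 47.7 (adjusted p = 0.000266, 0.0156 and 0.000316). Summed over all 16 listed markers the level was 3426 to 3589 in wild type, 3905 to 4660 in djc31, 3418 to 3812 in djc62 and 4872 to 5063 in the double mutant. The 8 cell division genes summed to 2223 to 2380, 2305 to 2704, 1972 to 2131 and 3447 to 3620 in the same order. The part of tissue makeup in the rise of the mitotic genes was not tested.

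Of 5 green leaf markers none rose and 2 fell in the double mutant, CA1, a carbonic anhydrase (112000 ± 9100 to 75800 ± 6420, adjusted p = 0.00479), and RBCS1A, a Rubisco small subunit (688000 ± 115000 to 395000 ± 15800, adjusted p = 0.0173). Their summed level was 1804000 to 2247000 in wild type and 1204000 to 1338000 in the double mutant. Of 8 stomatal lineage markers 2 rose, TMM, a receptor-like protein (324 ± 44.1 to 448 ± 33.5, adjusted p = 0.0219), and BASL, a polarity protein (122 ± 25.7 to 178 ± 11.9, adjusted p = 0.0366). None of the 8 rose without wild type replicate 1 or without double-mutant replicate 2 or 3, and 1 rose without wild type replicate 3 or double-mutant replicate 1. Among all tested loci, 13.8% rose and 15.5% fell in the double mutant. Root markers were near 0, with reads for 5 of 8 genes and summed levels of 6.427 to 25.51 in wild type and 67.71 to 91.98 in the double mutant. By these markers the libraries held little root RNA, although whole plants are named as the source. The one root marker tested, WOX5, known from the root quiescent centre, had 9.15, 6.43 and 11.6 in wild type and 83.3, 63.2 and 78.7 in the double mutant (2.94, adjusted p = 0.00781). It ran from 2.65 to 25.8 in djc31 and up to 6.99 in djc62. WOX5 thus passed the filter on low values only through the double mutant, the group where it is high, which limits what its test can show. None of 5 reference transcripts passed the test in the double mutant, with UBQ10 at 27800 ± 4860 and 30600 ± 3380 (adjusted p = 0.534) and ACT2 at 12700 ± 693 and 10400 ± 680 (adjusted p = 0.0768). In djc31 both of these rose (UBQ10 to 60800 ± 11600, adjusted p = 5.34e-05, and ACT2 to 16600 ± 2120, adjusted p = 0.0209).

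Genes with a profile like the mean of the 8 were sought by Pearson's r over the 12 libraries among 16465 loci with a mean value of at least 50. Nearest of all was AT4G02800, annotated as an unknown protein (r = 0.978, and 0.64 within genotypes), at 348 ± 14.7 in wild type, 356 ± 27.9 in djc31, 305 ± 27.8 in djc62 against 584 ± 30.6 in the double mutant. It was followed by the B-type cyclins CYCB1;4 (0.976) and CYCB2;4 (0.974). Then came WES1, an enzyme that conjugates amino acids to auxin (0.973), AT3G54400, an aspartyl protease family protein (0.971), RAN-1, a Ran GTPase (0.968), AT3G07540, a formin family protein (0.968), E13L3, a callose-binding protein of plasmodesmata (0.966), AT2G37130, a peroxidase family protein (0.965), and RAE1 (0.963). RAN-1 went from 6150 ± 302 in wild type to 12900 ± 605 in the double mutant and RAE1 from 548 ± 35.5 to 1480 ± 77.7. With genotype means removed r was 0.81 for RAN-1 and 0.92 for RAE1, but 0.20 for CYCB1;4. The 12 libraries fall into 4 genotypes, so they are not independent points, and r is given as a description.

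CYCB1;1 taken alone was closest to NAC103 (r = 0.963, and 0.88 within genotypes), then to MAP65-4, a microtubule bundling protein of the spindle and phragmoplast (0.961 and 0.83). BCA3, a beta carbonic anhydrase (0.957), AT4G20320, a CTP synthase family protein (0.955), and SHI (0.944) followed. MAP65-4 was at 160 ± 21.7 in wild type, 141 ± 24.5 in djc31, 145 ± 9.04 in djc62 against 260 ± 16.4 in the double mutant. CYCD3;1 was closest to AT2G24550, annotated as an unknown protein (0.976, and 0.97 within genotypes), with AT3G03030, an F-box family protein (0.942), AT2G34620, a mitochondrial transcription termination factor family protein (0.937), GLTP3, a glycolipid transfer protein (0.936), and NUDT21, a nudix hydrolase (0.929), next. AT2G24550 was highest in wild type (2030 ± 370), then in the double mutant (1220 ± 69.4), djc31 (925 ± 227) and djc62 (730 ± 165), which is the order of the CYCD3;1 means.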

How the data were processed

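The values are the authors' deposited normalised signal, 1 number for each locus in each library, in a sheet named for DESeq2 per the file headers. Per the submitters' processing notes, Trimmomatic, FastQC and featureCounts were used with the build TAIR10; no source used here gives versions, the aligner, the strand or the handling of reads with several matches. Each deposited value is a whole read count divided by 1 factor per library, and 100% of values came back as whole reads (tolerance 0.01); 1 read is worth 0.7441 to 2.148.

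limma 3.58.1 (R 4.3.3) with a mean-variance trend was fitted to log2(value + 1) over 12 libraries with 4 genotype means and 8 residual degrees of freedom, for loci at 10 or more in at least 3 libraries (19975 tested, 16942 removed). Benjamini-Hochberg adjustment was made separately for the 7 comparisons, with a threshold of 0.05. The edgeR 4.0.16 quasi-likelihood test and DESeq2 1.42.0, run on the recovered read counts, other pseudocounts, filters, scalings and sample sets, and fits without each library were the alternatives. Named genes are the 8 genes and, per list, up to 3 with the lowest adjusted p in the double mutant against wild type (the 2 of highest mean where none passed), with CDKA;1, WEE1, CYCB1;3, CYCB1;4, DJC31 and DJC62. Profiles most like the mean of the 8, CYCB1;1 and CYCD3;1 were the top 10, 5 and 5 by r. The 8 genes and all lists were chosen with earlier results of these data known. The result of 1 gene is not reported here. All 190 locus identifiers were found in the table; 36632 of its loci matched RefSeq's table, used for names and overlaps. Scripts were tested on simulated data. Replicates differed by more than counting error (chi-square over degrees of freedom 6.61 to 33), so the spread between libraries limits precision; the floor of 3 reads for a locus without reads covers counting error only.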

Additional observations from a re-analysis of the deposited data

Results flagged for a closer look

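For 6 of the 8 genes the change with both co-chaperone genes mutated differed from the sum of the changes in the single mutants, by limma's test of the non-additive contrast. In log2 units the difference was 1.52 for CYCB1;1, 1.05 for CYCA1;1, 0.89 for CYCB1;2, 0.67 for CDKB2;2, 0.66 for KNOLLE and 0.53 for CYCD3;1. The first 3 kept their call in each of the 12 fits that left out 1 library, while CDKB2;2, KNOLLE and CYCD3;1 lost theirs in 7, 7 and 6 of them.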

How the results depend on the processing

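In the double mutant against wild type, 7 of the 8 genes were higher in every alternative run, the 12 fits without 1 library included. Elsewhere the number of the 8 past the threshold moved as follows. In djc31 against wild type it was 1 in place of 2 with no filter on low values or only the groups compared, where CDKB1;1 was lost (adjusted p = 0.0635 and 0.11), and 3 with the filter at 50 or DESeq2, with CYCD3;1 added (0.0488 and 0.0414). In djc62 against wild type it was 2 in place of 1 with upper-quartile scaling or DESeq2, with CYCA1;1 added. In djc62 against djc31 it was 2 with upper-quartile scaling, edgeR or DESeq2, with KNOLLE added, and 0 with only the groups compared or with the replicate block; the locus count there fell from 2749 to 1093 with only the groups compared. Same-numbered libraries did not deviate together (correlations -0.15 to 0.11, and 0 of 12 libraries correlated best with their own number), and the block changed no other call of the 8. Without 1 library the counts of the 8 ran from 1 to 3 (djc31) and 0 to 2 (djc62) against wild type, 4 to 6 and 6 to 7 for the double mutant against djc31 and djc62, 0 to 2 for djc62 against djc31 and 3 to 6 for the non-additive contrast. Locus counts ran from 4115 to 5614, 3838 to 6063 and 4095 to 6613 against wild type in djc31, djc62 and the double mutant, 4033 to 6613 and 2338 to 4738 for the double mutant against djc31 and djc62, 1110 to 3193 for djc62 against djc31 and 4826 to 6729 for the contrast. Signs turned only in such fits and only for differences not past the threshold: CYCB1;1 in djc31 (-0.33 to 0.15), in djc62 (-0.45 to 0.04) and between them (-0.26 to 0.14), CYCB1;2 in djc31 (-0.12 to 0.22), CDKB2;2 in djc31 (-0.01 to 0.19), in djc62 (-0.05 to 0.13) and between them (-0.14 to 0.02), CYCD3;1 in the double mutant against djc31 (-0.00 to 0.14) and CDKB1;1 in the contrast (-0.11 to 0.46). Upper-quartile scaling moved the share of higher among called loci from 47.5% to 61.5% in the double mutant against djc62 and from 57.5% to 46% in djc62 against djc31. List counts without 1 library were added after the data were seen, and the cause of these shifts was not tested.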
